A study of Saccharomyces cerevisiae with 14 samples.

Results

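The peroxisomal beta-oxidation genes of the budding yeast Saccharomyces cerevisiae were followed through the growth phases of a haploid strain grown with and without the biguanide drug metformin. They are POX1 (YGL205W), FOX2 (YKR009C), POT1 (YIL160C), FAA2 (YER015W), PXA1 (YPL147W), PXA2 (YKL188C), ECI1 (YLR284C), SPS19 (YNL202W), TES1 (YJR019C) and ANT1 (YPR128C), which were set by their locus tags as members of the pathway. No measured value is part of that rule, but earlier results of these data were known when the genes were chosen. These 10 genes are 10 of the 6470 features counted, and all 10 passed the filter on low counts that left 6097 features to be tested. Ribosome-depleted RNA was sequenced in 14 libraries, in 4 groups: mid exponential cultures with 0 mM metformin (n = 4), exponential cultures with 50 mM metformin (n = 4), late stationary cultures with 0 mM metformin (n = 3) and stationary cultures with 50 mM metformin (n = 3). Whether replicates came from separate cultures is not labelled. The p-values therefore rest on the spread of these libraries, which may be technical. All groups share the same MATa strain, which carries his3D::kanMX4 and his3D1, ura3D0, lyp1D and LEU2, with can1D::STE2pr-SpHIS5 in place of CAN1 and the tag PDC1-RFP-CaURA3MX4. All grew in synthetic complete (SC) medium at pH 4. URA3 had 0 counts in every library, while CAN1, labelled as replaced, was read with 1334 to 1877 counts in the exponential phase and 67 to 106 in the stationary phase, which goes against that label. Gene counts per library lay between 43897221 and 59443572.

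Yeast breaks down fatty acids in peroxisomes only. Long-chain acyl-CoA enters through the ABC transporter formed by Pxa1 and Pxa2, whereas medium-chain fatty acids are activated inside by the acyl-CoA synthetase Faa2 with ATP that the carrier Ant1 brings in. The acyl-CoA oxidase Pox1, the multifunctional enzyme Fox2 and the thiolase Pot1 then run the cycle. The isomerase Eci1 and the dienoyl-CoA reductase Sps19 prepare unsaturated chains for it, and the thioesterase Tes1 releases free acids from acyl-CoA. Many of these genes are repressed by glucose, induced by oleate through the Oaf1-Pip2 factor at oleate response elements, and also served by the zinc finger factor Adr1.

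The oleate response element was looked for first, because it is a feature of the promoters that the choice of genes did not use. The motif was CGG, any 3 bases, T, any base, A, then 9 to 12 bases and CCG (in its shortest form CGGNNNTNANNNNNNNNNCCG), on both strands, within 500 bases upstream of the start codon in the R64 reference genome (RefSeq). It occurred upstream of 8 of the 10 genes and in 1.88% of 6000 promoters of that length. The motif was originally described from genes of this pathway, so the count is not independent evidence. The matches are printed 5′ to 3′ on the strand of the gene, with the motif in capitals and 12 bases on each side. POX1 and FOX2 each held 2.
POX1, distal (chrVII:107834-107880, plus strand): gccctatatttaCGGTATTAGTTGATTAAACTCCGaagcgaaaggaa
POX1, proximal (chrVII:107871-107917, plus strand): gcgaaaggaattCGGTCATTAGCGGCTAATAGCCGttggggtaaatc
FOX2, distal (chrXI:457325-457370, minus strand): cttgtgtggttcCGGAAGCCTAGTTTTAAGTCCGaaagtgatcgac
FOX2, proximal (chrXI:457293-457337, minus strand): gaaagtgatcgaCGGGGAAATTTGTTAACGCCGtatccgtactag
POT1 (chrIX:41598-41644, minus strand): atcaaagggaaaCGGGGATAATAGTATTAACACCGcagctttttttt
FAA2 (chrV:184343-184389, plus strand): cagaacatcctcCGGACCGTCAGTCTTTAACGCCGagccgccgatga
PXA2 (chrXI:89023-89070, minus strand): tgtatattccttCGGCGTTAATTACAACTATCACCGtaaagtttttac
ECI1 (chrXII:707179-707225, minus strand): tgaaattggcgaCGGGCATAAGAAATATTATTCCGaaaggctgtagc
SPS19 (chrXIV:259400-259447, plus strand): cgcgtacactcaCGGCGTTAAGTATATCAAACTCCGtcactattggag
TES1 (chrX:468377-468423, minus strand): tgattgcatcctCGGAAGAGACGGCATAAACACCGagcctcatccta

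The matches lay between 312 and 108 bases upstream of the start codon. The proximal POX1 match and the POT1 match fitted the motif on both strands. The PXA2, ECI1 and SPS19 matches fitted it on the printed strand only. The distal POX1, FAA2 and TES1 matches and both FOX2 matches fitted it on the opposite strand only, so their capitals show its reverse complement. PXA1 and ANT1 had no match in this window, which says only that these letters are not there. A core sequence of the Adr1 site, TTGGNG on either strand, was found upstream of 9 of the 10 genes, but also in 51.4% of the 6000 promoters. In POX1 it starts at the base next to the proximal element.

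Between the phases without metformin, 9 of the 10 genes were higher in stationary cultures and ANT1 was lower, with TMM scaling, while TES1 was not called with plain library totals. The rises ran from 1.85-fold for TES1 to 386-fold for POX1. In the edgeR quasi-likelihood test with Benjamini-Hochberg adjustment, 42.4% of all tested features rose and 42.2% fell (84.6% in either direction), so being called is in itself common in this comparison. With TMM the groups did not overlap for any of the 10 genes, nor for 83.7% of all features, and with plain library totals TES1 overlapped. POX1 and POT1 held ranks 10 and 12 of the 6097 log2 fold changes and SPS19 rank 45. The median over the 10 genes was 3.30 on the log2 scale, beside 0.02 over all features tested. Their summed level went from 119 ± 9.67 CPM (SD, n = 4) to 1934 ± 157 CPM (SD, n = 3). CPM here are counts scaled to library size and by TMM, a factor that centres the libraries on the bulk of the features. In bulk RNA a change in the number of cells that express a gene and a change of RNA per cell cannot be told apart.

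**Figure D1:**
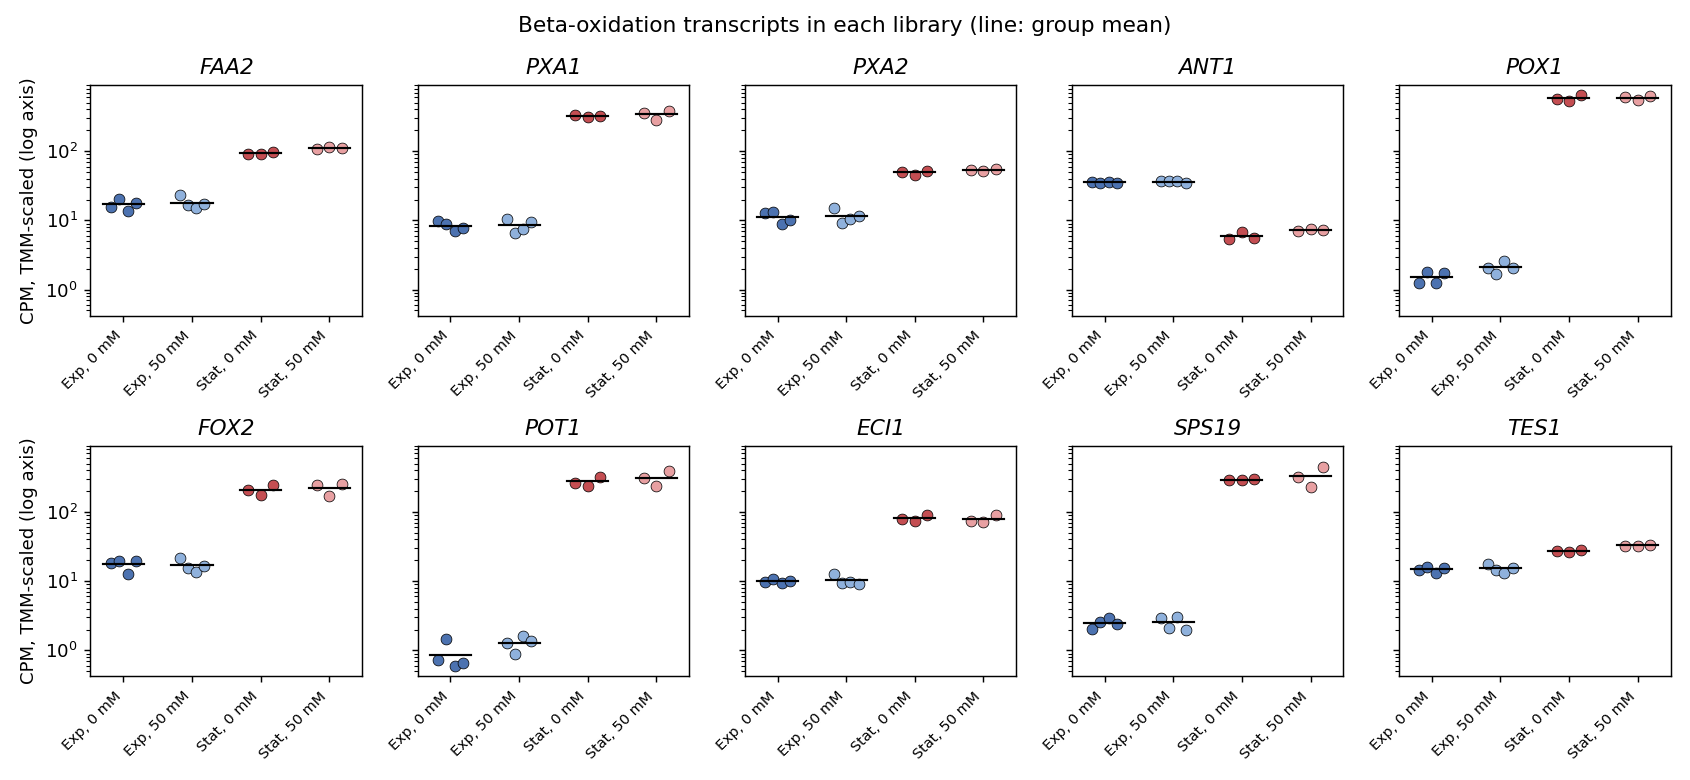
Level of each gene in each of the 14 libraries in CPM, on a log axis, by phase (Exp, Stat) and metformin concentration, with points for libraries and lines for group means. With this TMM scaling stationary libraries lie above exponential ones for 9 genes (8 with plain library totals, where TES1 overlaps) and below them for ANT1, while points with and without metformin lie close together.

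The scaling matters for this comparison, since stationary and exponential RNA differ in composition. TMM factors were 1.35 to 1.52 in exponential and 0.493 to 0.744 in stationary libraries. With plain library totals the median of all features was -1.02 without and -1.22 with metformin on the log2 scale, 17.5% of features rose and 65.9% fell without metformin, and 13.5% rose and 70.4% fell with it. Of the 10 genes 8 rose and ANT1 fell in both. The exception was TES1, described below.

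The enzymes of the cycle itself changed by very different amounts. POX1, whose product makes the first and peroxide-forming step, stood at 1.25, 1.77, 1.25 and 1.75 CPM in exponential and 573, 532.9 and 638.6 CPM in stationary libraries without metformin. With metformin it stood at 2.05, 1.70, 2.60 and 2.03 CPM in exponential and at 601, 548.5 and 626.6 CPM in stationary libraries. Exponential and stationary libraries were far apart and did not overlap. Its log2 fold change between phases without metformin was 8.59 (SE 0.191, adjusted p = 2.17e-13 by edgeR).

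POT1, the thiolase of the last step, stood at 0.724, 1.46, 0.596 and 0.660 CPM in exponential and at 260.8, 240.1 and 324.3 CPM in stationary libraries without metformin. It rose 321-fold (log2 8.32, SE 0.321, adjusted p = 8.61e-12 by edgeR). Its SE was the largest of the 10. In exponential libraries without metformin it was read from 44 to 101 counts, with the highest level in library 2. FOX2, which carries the hydratase and dehydrogenase steps between them, rose 12.0-fold, from 12.8 to 19.4 CPM in exponential to 176 to 242 CPM in stationary libraries (log2 3.58, SE 0.202, adjusted p = 4.63e-10 by edgeR).

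A ratio taken within a library does not depend on the scaling. Per coding length, POX1 stood at 0.0822 to 0.118 of FOX2 in exponential and at 3.18 to 3.64 times FOX2 in stationary libraries without metformin. The ratio of POT1 to FOX2 went from 0.0740 to 0.162 in the former to 2.72 to 2.94 in the latter. FOX2 was therefore the most abundant transcript of the cycle in exponential libraries and the least abundant in stationary ones. These ratios, and those given further on, were chosen after the values were seen and are given with no test.

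The auxiliary enzymes for unsaturated chains rose as well. SPS19 rose 116-fold, from 2.04 to 2.97 CPM in exponential to 286 to 299 CPM in stationary libraries (log2 6.86, SE 0.236, adjusted p = 3.33e-12 by edgeR). ECI1 rose 8.12-fold, from 9.45 to 10.7 CPM to 74.4 to 91.0 CPM (log2 3.02, SE 0.125, adjusted p = 1.65e-11). DCI1, the paralog of ECI1, rose 7.34-fold (log2 2.88, SE 0.107) and also holds the oleate response element. The ratio of ECI1 to DCI1 per length was 1.15 to 1.60 in exponential and 1.45 to 1.53 in stationary libraries, and these ranges overlapped, whereas that of SPS19 to ECI1 went from 0.200 to 0.302 to 3.15 to 3.69.

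Of the entry routes, the transporter for long chains changed unevenly between its subunits. PXA1 stood at 9.64, 8.94, 6.92 and 7.66 CPM in exponential and at 330, 307.9 and 320.7 CPM in stationary libraries without metformin, a rise of 38.6-fold (log2 5.27, SE 0.175, adjusted p = 2.55e-12 by edgeR). PXA2 stood at 12.8, 13.4, 8.89 and 10.2 CPM and at 50.0, 45.7 and 52.2 CPM, a rise of 4.37-fold (log2 2.13, SE 0.158, adjusted p = 1.06e-08). Per length, the ratio of PXA1 to PXA2 was 0.657 to 0.764 in exponential and 6.02 to 6.61 in stationary libraries without metformin, and 0.673 to 0.809 and 5.36 to 6.78 with it. The subunit with the larger rise is the one with no match to the oleate response element in the window searched.

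The entry route for medium chains split in its direction. FAA2 rose 5.49-fold, from 13.9 to 20.5 CPM in exponential to 90.4 to 96.9 CPM in stationary libraries (log2 2.46, SE 0.142, adjusted p = 6.36e-10 by edgeR). A reading frame on the other strand, BUD25, overlaps FAA2 in the R64 annotation. It stood at a mean of 0.104 CPM in exponential and 1.15 CPM in stationary libraries without metformin. The strand setting of the counting is not given, so reads from BUD25 and FAA2 cannot be told apart with certainty.

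ANT1, the ATP carrier, went the other way. It stood at 36.0, 34.3, 35.9 and 35.0 CPM in exponential and at 5.32, 6.78 and 5.61 CPM in stationary libraries without metformin. With metformin the values were 36.7, 36.5, 36.6 and 34.5 CPM and 6.91, 7.40 and 7.34 CPM. It fell by 2.58 on the log2 scale (SE 0.0844, adjusted p = 2.21e-12 by edgeR), and stood at -3.63 with plain library totals. The exponential libraries agreed closely for this gene, with a coefficient of variation of 2.30% without metformin.

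TES1, the thioesterase, moved least, and its direction depends on the scaling. It stood at 14.5, 16.3, 13.3 and 15.4 CPM in exponential and at 27.4, 26.3 and 28.6 CPM in stationary libraries without metformin. With TMM it rose 1.85-fold (log2 0.88, SE 0.0982, adjusted p = 9.26e-07 by edgeR), and with plain library totals it stood at -0.16 (adjusted p = 0.325). With metformin the values were 1.11 with TMM and -0.11 with plain library totals (adjusted p = 0.507). The call for TES1 thus holds relative to the bulk of the features, and not for its share of all gene counts.

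**Figure D2:**
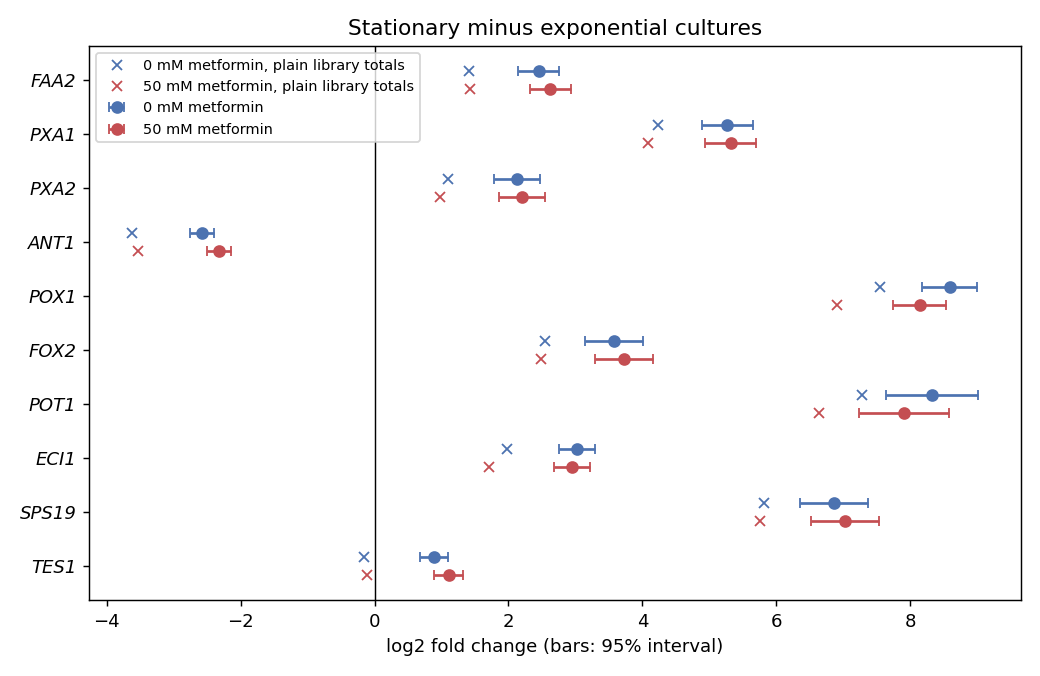
Log2 fold change from exponential to stationary cultures for each gene, without (blue) and with (red) 50 mM metformin, with 95% intervals from the edgeR fit. Crosses give the same with plain library totals, which lie to the left of the points throughout and put TES1 on the other side of 0.

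The order of the genes by level per length differed widely between the phases. In exponential cultures without metformin ANT1 was highest at 35.8 ± 0.822 CPM per kb (SD, n = 4), followed by TES1 at 14.2 ± 1.22 and ECI1 at 11.9 ± 0.641, whose ranges overlapped. FAA2, FOX2, PXA2, PXA1 and SPS19 followed with 7.60 to 2.85 CPM per kb, each overlapping the next. POT1 at 0.685 ± 0.320 and POX1 at 0.670 ± 0.132 CPM per kb stood apart at the bottom and overlapped each other.

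In stationary cultures without metformin SPS19 was highest at 332 ± 7.51 CPM per kb (SD, n = 3). POX1 at 259 ± 23.7 and POT1 at 219 ± 35.0 CPM per kb followed and overlapped, then PXA1 at 122 ± 4.25, ECI1 at 96.4 ± 10.3 and FOX2 at 77.0 ± 12.2, of which the last pair overlapped. FAA2, TES1, PXA2 and ANT1 followed without overlap, with ANT1 lowest at 5.98 ± 0.785 CPM per kb. As shares of the counts of these 10 genes, ANT1 went from 29.8% ± 3.07 (SD, n = 4) to 0.308% ± 0.0621 (SD, n = 3), and POX1 from 1.26% ± 0.189 to 30.1% ± 0.324.

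**Figure D3:**
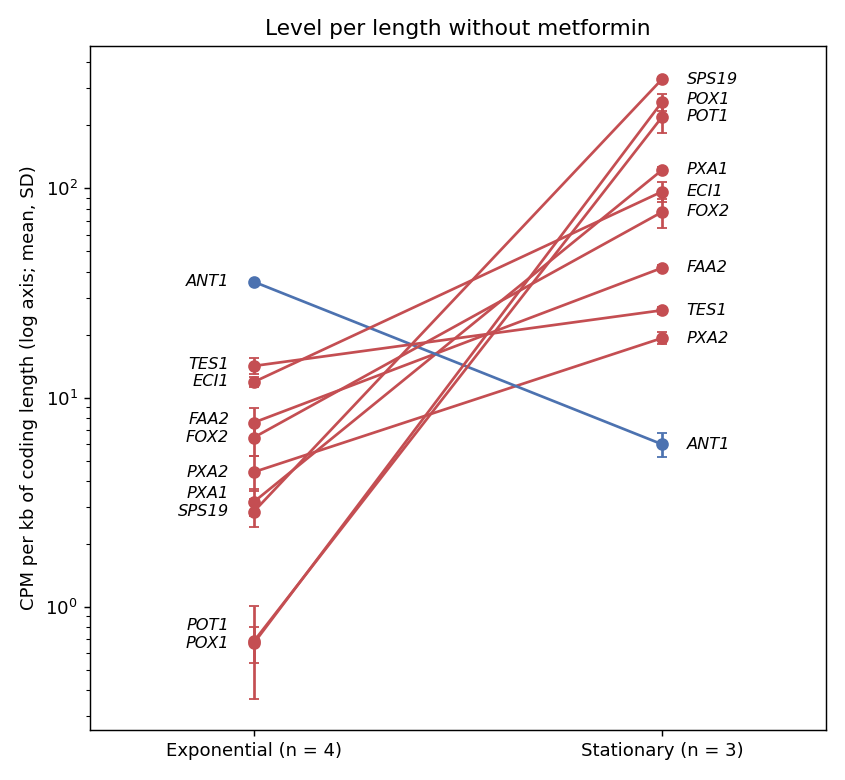
Mean level per coding length in CPM per kb, on a log axis, in exponential and stationary cultures without metformin, with SD bars. Lines join the same gene, red where the mean was higher and blue where it was lower in the stationary phase with TMM (TES1 was not called with plain library totals), and they cross because ANT1 goes from first to last while POX1 goes from last to second.

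With metformin 9 genes were again called higher and ANT1 lower with TMM (8 higher with plain library totals, without TES1), beside 40.8% of features higher and 41.8% lower (82.6% in either direction). With TMM the groups did not overlap for any of the 10, nor for 79.8% of features, and TES1 overlapped with plain library totals. POX1 rose 282-fold, POT1 239-fold, SPS19 130-fold, PXA1 39.9-fold, FOX2 13.2-fold, ECI1 7.71-fold, FAA2 6.17-fold, PXA2 4.59-fold and TES1 2.15-fold, and ANT1 fell by 2.32 on the log2 scale (edgeR, adjusted p of 2.12e-13 to 8e-08). The change of the metformin effect with phase, which is also the difference between these phase comparisons, passed for 0 of the 10 genes in edgeR, 0 in DESeq2 and 0 in limma-voom, beside 0.0164% of features in edgeR. At an unadjusted p under 0.05 it held 1 gene, ANT1, at 0.26 (SE 0.112, adjusted p = 0.807), beside 5.54% of all features.

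Metformin moved none of the 10 genes past the threshold in either phase. In exponential cultures 0 of 10 passed in edgeR, 0 in DESeq2 and 0 in limma-voom, beside 0.0984% of features in edgeR. POX1 came nearest, with a mean of 1.51 ± 0.295 CPM in untreated and 2.09 ± 0.377 CPM in treated cultures (SD, n = 4 each). Groups overlapped for all 10 genes, and did not for 1.33% of features. Its log2 fold change was 0.48 (95% interval 0.16 to 0.80, unadjusted p = 0.00678, adjusted p = 0.999 by edgeR), the only one of the 10 with an unadjusted p under 0.05, beside 1.77% of features. POT1 stood at 0.59 (95% interval -0.01 to 1.19, adjusted p = 0.999), at 0.724, 1.46, 0.596 and 0.660 CPM without and 1.26, 0.897, 1.60 and 1.38 CPM with metformin. Leaving out a library put POT1 between 0.44 and 0.97, with no call in any case. The upper end came without the exponential library without metformin numbered 2, its highest. The other 8 genes stood between -0.05 for FOX2 and 0.09 for FAA2, with SEs of 0.0681 to 0.196 and 95% intervals within -0.43 to 0.43.

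In stationary cultures 0 of 10 genes passed with metformin in edgeR, 0 in DESeq2 and 0 in limma-voom, beside 0.0492% of features in edgeR. ANT1 stood at 0.29 (95% interval 0.10 to 0.49, unadjusted p = 0.0054, adjusted p = 0.294 by edgeR) and TES1 at 0.26 (95% interval 0.03 to 0.48, unadjusted p = 0.0302, adjusted p = 0.535), and these 2 of 10 stand beside 8.04% of all features at an unadjusted p under 0.05. FAA2 stood at 0.26 (95% interval -0.06 to 0.58, adjusted p = 0.749). In these 3 genes every library with metformin lay above every library without it with TMM scaling, as 8.2% of all features did (11.2% in either direction). With plain library totals the groups overlapped for all 3, as for ANT1 at 3.61 to 5.32 with and 3.75 to 4.16 without metformin, in counts scaled to library size alone. TES1 stood at 32.6, 32.4 and 33.3 CPM with metformin, and FAA2 at 107, 115 and 112 CPM, against 92.0, 90.4 and 96.9 CPM without it. With plain library totals the 3 values were 0.15 for ANT1, 0.10 for TES1 and 0.11 for FAA2. Without the stationary library with 0 mM metformin numbered 1 ANT1 stood at 0.23, and without number 2 at 0.40.

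POX1, the most changed between phases, had means of 581.5 ± 53.3 CPM in untreated and 592 ± 39.9 CPM in treated stationary cultures (SD, n = 3 each). Its log2 fold change was 0.03 (95% interval -0.31 to 0.36). SPS19 spread most, at 320, 232.8 and 438 CPM with metformin against 292, 286 and 299 CPM without, with 0.18 (95% interval -0.26 to 0.62). The other 5 genes stood between -0.04 for ECI1 and 0.17 for POT1, with 95% intervals within -0.39 to 0.72. Of the 10 genes 9 had a positive value, with a median of 0.14 beside 0.01 over all features, and with plain library totals the median was -0.04 beside -0.13. The median with TMM depended on single libraries. Without the stationary library with metformin numbered 3 it was 0.004, beside 0.022 over all features. Without number 2 of the same group it was 0.252, beside 0.005. The 9 positive values come from the same libraries, so they are not separate results, and a shift of the genes as a group was not tested.

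**Figure D4:**
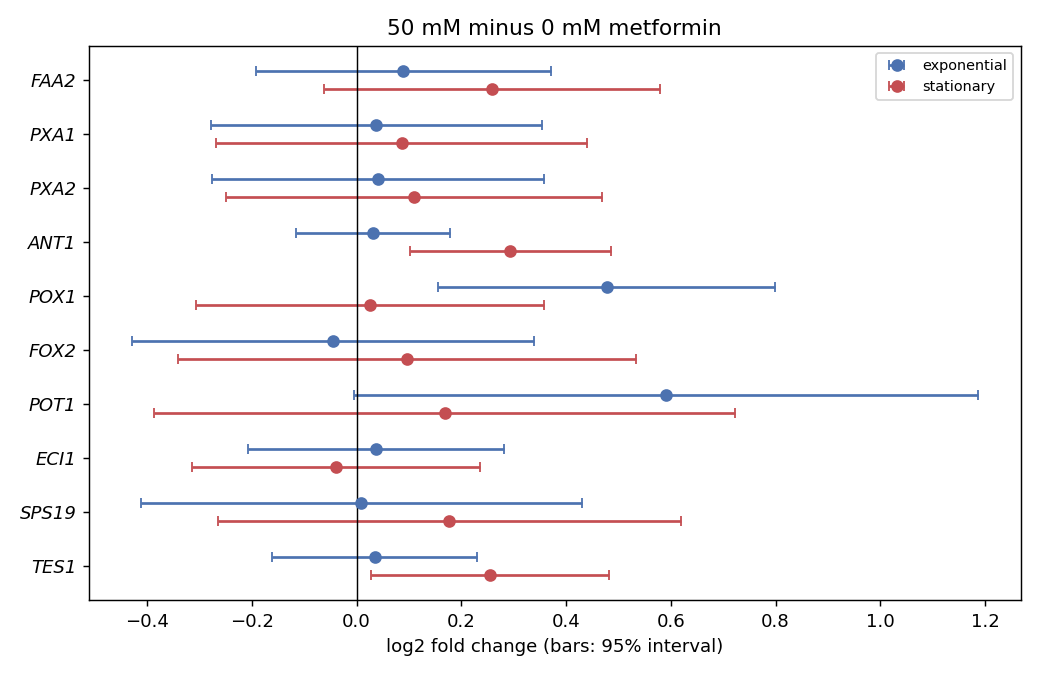
Log2 fold change with 50 mM against 0 mM metformin for each gene, in exponential (blue) and stationary (red) cultures, with 95% intervals from the edgeR fit before adjustment. The intervals of POX1 in exponential cultures and of ANT1 and TES1 in stationary cultures do not include 0, and none of the 20 values passed after adjustment.

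Which library of a group was highest or lowest depended in part on the scaling. Among stationary libraries with metformin, number 3 was highest for 8 of the 10 genes with TMM, but highest for 2 and lowest for 7 with plain library totals. Number 2 was lowest for 8 with TMM, and lowest for 3 and highest for 6 with plain library totals. Among stationary libraries without metformin, number 2 was lowest for 9 genes with either scaling, and number 3 was highest for 8 with TMM and for 4 with plain library totals. In exponential cultures library 2 without metformin was highest for 7 genes with either scaling, and library 3 was lowest for 7 with TMM and for 6 with plain library totals. Library 1 with metformin was highest for 7 with TMM and for 6 with plain library totals. Exponential libraries 3 without and 3 with metformin lay furthest out on the second principal component of all features, at 17.3 and 19.4 against -16.2 to 4.47 for the other 12 libraries. Their part in these results was not tested, and leaving out either changed no call for the 10 genes.

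The regulators of oleate-induced genes rose in part. ADR1 rose from 51.0 ± 9.29 CPM (SD, n = 4) to 638 ± 46.7 CPM (SD, n = 3) without metformin, by 3.64 on the log2 scale (SE 0.212, adjusted p = 6.67e-10 by edgeR) and by 2.60 with plain library totals. PIP2, which itself holds the oleate response element, stood at 1.21 (SE 0.078, adjusted p = 2.11e-09) with TMM and at 0.17 (adjusted p = 0.315) with plain library totals. Its partner OAF1 stood at 0.81 (SE 0.0646) with TMM and at -0.23 with plain library totals, so the direction of OAF1 depends on the scaling. SNF4, the activating subunit of the Snf1 kinase that relieves glucose repression, fell by 1.36 (SE 0.0937). Of 7 listed regulators 5 rose and 1 fell with TMM, and 1 rose and 3 fell with plain library totals. Beside this list and those below stand 42.4% of all features higher and 42.2% lower with TMM. With plain library totals these shares were 17.5% and 65.9%. With metformin ADR1, PIP2 and OAF1 stood at 0.24, 0.06 and 0.04 in exponential and at -0.01, 0.03 and -0.01 in stationary cultures, and DCI1 at 0.10 and 0.03, with adjusted p of 0.992 to 0.999 by edgeR.

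Enzymes that work beside beta-oxidation in the peroxisome followed the same direction. Of 10 listed, 9 rose and 1 fell without metformin (6 and 1 with plain library totals), with a median of 2.60. CTA1, the peroxisomal catalase that removes the peroxide made by Pox1, rose by 7.48 (SE 0.174) and CAT2, the carnitine acetyltransferase, by 4.82 (SE 0.274). NPY1, an NADH diphosphatase, fell by 2.67 (SE 0.0725). Of 7 listed genes of peroxisomal import and division 6 rose and 1 fell (4 and 2 with plain library totals). PEX18, a helper of the import receptor that carries Pot1, rose by 6.90 (SE 0.253) from a mean of 0.824 to 98.3 CPM. PEX5, the main import receptor, rose by 1.82 (SE 0.126), and PEX21, the paralog of PEX18, fell by 0.78 (SE 0.127).

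Of 7 listed genes that handle carnitine, acetate and acetyl-CoA (CRC1, YAT1, YAT2, AGP2, ACS1, ACS2 and ACH1), 6 rose and 1 fell with either scaling, with a median of 5.10 with TMM. CRC1, the mitochondrial carnitine carrier, rose by 6.29 (SE 0.36) and YAT1, an outer carnitine acetyltransferase, by 6.22 (SE 0.172), while ACS2, the acetyl-CoA synthetase of growth on glucose, fell by 4.02 (SE 0.168). Fatty acid synthesis went in the other direction, with 9 of 11 genes lower and 2 higher (10 and 0 with plain library totals) and a median of -2.65. The elongases ELO2 and ELO3 fell by 3.78 (SE 0.138) and fell by 3.73 (SE 0.131). OLE1, the desaturase, stood at 0.80 (SE 0.123) and HFA1, the mitochondrial acetyl-CoA carboxylase, at 0.42 (SE 0.125), against -0.26 and -0.63 with plain library totals.

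Other ways of activating and releasing fatty acids were mixed. Of 5 further genes of fatty acid activation and uptake 2 rose and 3 fell (1 and 4 with plain library totals). FAA1, the main synthetase for imported chains, rose by 1.94 (SE 0.157) and FAA3 by 0.59 (SE 0.116), the latter at -0.46 with plain library totals. FAA4 fell by 1.53 (SE 0.155), and ACB1, the acyl-CoA binding protein, by 3.75 (SE 0.116). Of 8 lipases and related enzymes 5 rose and 2 fell (0 and 6 with plain library totals, where 65.9% of all features fell). TGL3 and TGL4, which break down stored triacylglycerol, stood at 1.15 (SE 0.0675) and 1.10 (SE 0.0855), and at 0.11 and 0.06 with plain library totals, while TGL1, a sterol ester hydrolase, and AYR1 fell by 2.66 (SE 0.126) and by 1.12 (SE 0.128). All of these values are for the phase comparison without metformin, in which every named rise or fall passed in edgeR with TMM. In both metformin comparisons 0 of the 55 genes of these 7 lists passed in edgeR.

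**Figure D5:**
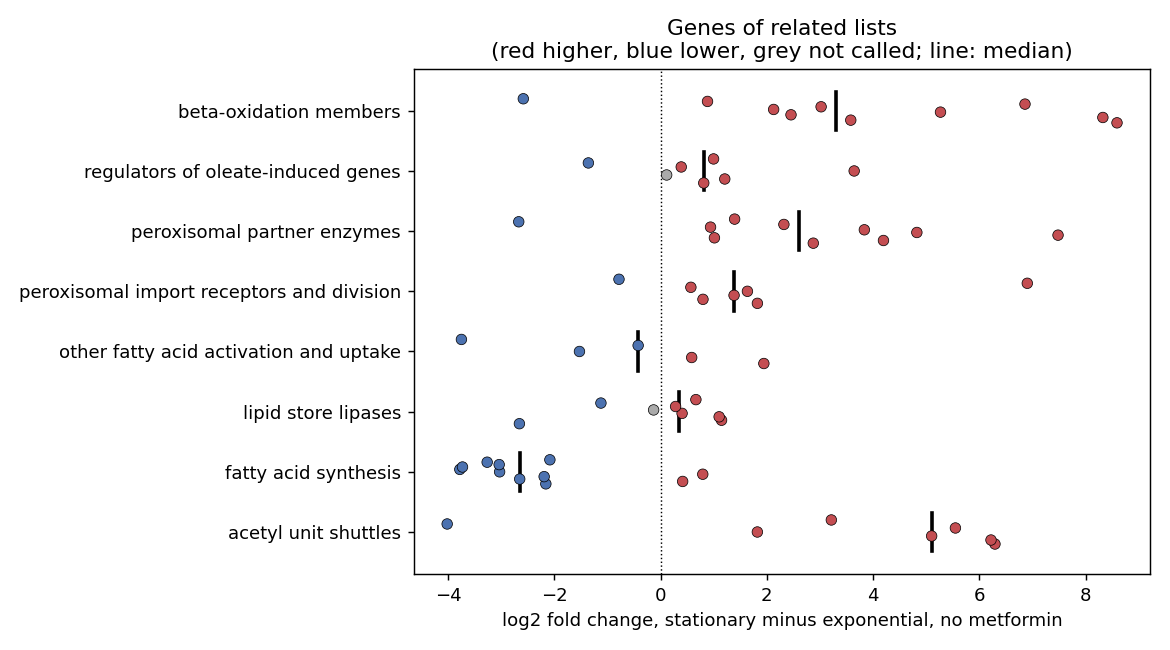
Log2 fold change from exponential to stationary cultures without metformin for each gene of 8 lists, with a line at each list's median. The beta-oxidation genes, the partner enzymes and the carnitine and acetyl-CoA genes (acetyl unit shuttles) lie mostly to the right, and fatty acid synthesis mostly to the left.

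Genes that share an upstream interval with these genes were read as well, outside the rule for named genes. POX1 and CHC1, the clathrin heavy chain gene, diverge from 653 bases that hold both POX1 elements, and CHC1 fell by 3.74 (SE 0.111). NNT1, divergent from ECI1, fell by 2.25 (SE 0.103). BNR1, divergent from POT1 over 380 bases, stood at -0.01 (SE 0.173, adjusted p = 0.965 by edgeR), and SPS18, divergent from SPS19 over 300 bases, at 0.33 (SE 0.175, adjusted p = 0.098). With plain library totals BNR1 stood at -1.06 and SPS18 at -0.73, so for none of these 4 partners was a rise called with either scaling. PPT2, divergent from PXA1, stood at -0.52 (SE 0.179, adjusted p = 0.0141), and at -0.29 (adjusted p = 0.0559) without the stationary library with 0 mM metformin numbered 3. SCD6, divergent from ANT1, fell by 0.96 (SE 0.0757). Of the genes that lie upstream on the same strand, FAT3 before PXA2 rose by 4.28 (SE 0.172), and by 3.24 with plain library totals. FAT3 itself has an oleate response element upstream. REC107 before TES1 stood at 1.22 (SE 0.0966) with TMM and at 0.18 (adjusted p = 0.224 by edgeR) with plain library totals. HEM14 before FAA2 stood at 0.03 (SE 0.0721, adjusted p = 0.664) with TMM and at -1.01 with plain library totals.

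Of the other 105 genes with an oleate response element upstream, all of which were tested, 49 rose and 38 fell without metformin, a share of 46.7% higher beside 42.4% of all features, with a median of 0.22. These 105 include FAT3, and also CHC1, NNT1, BNR1 and SPS18, which share the upstream intervals of POX1, ECI1, POT1 and SPS19. The 5 genes outside the pathway whose group means came closest to the median profile of the 10 genes, by Euclidean distance of centred log2 CPM over the 4 groups, were COS111, ATH1, DPI8, GID11 and NGL3, at 0.0327 to 0.0628. They rose by 3.13, 3.28, 3.20, 3.11 and 3.27 between the phases without metformin, with SEs of 0.138 to 0.389. The size of these rises follows from the selection by profile and is not a separate result. Among the 10 genes FOX2 and ECI1 lay nearest to that profile, both at 0.35, and ANT1 farthest, at 5.64.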

How the data were processed

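The authors deposited raw counts for each feature. The submitters' processing notes name STAR, SAMtools and HTSeq. Libraries were directional and ribosome-depleted, per the labels' protocols. Not given in the sources used here are versions, genome build, annotation and strand setting. Each of the 6470 identifiers matched R64 locus tags, which gave names, lengths and promoter sequences. The summary rows of HTSeq, 6.12% to 10.1% of reads, were left out. They made up 9.03% to 10.1% in exponential and 6.12% to 7.73% in stationary libraries. Reads without a unique alignment went from 6.11% to 6.84% in the former to 1.125% to 1.40% in the latter. Ambiguous reads went from 0.411% to 0.473% to 1.95% to 2.13%. The part of this difference in the phase comparison was not tested. No stretch of 50 bases of the 10 genes recurs elsewhere in R64.

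Features passing filterByExpr (minimum count 10, minimum total 15) entered the quasi-likelihood test of edgeR 4.0.16 (R 4.3.3) on TMM-scaled counts, all 14 libraries together, two-sided, with Benjamini-Hochberg adjustment over 6097 features and a threshold of 0.05. Standard errors were derived from the test statistic. The script recovered changed genes in data simulated from these counts. DESeq2 1.42.0, limma-voom (limma 3.58.1), other scalings, no filter, the groups compared alone, a replicate block and leaving out each library were alternatives.

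The genes, the related lists and the rule for named genes were chosen with earlier results of these data known. The rule gives the 10 genes, OAF1, PIP2, ADR1 and DCI1 in every comparison, up to 2 called rises and 2 called falls per related list, and the 5 nearest profiles. Ratios and neighbouring genes were chosen outside it, after values were seen. For the likeness of profiles 0.5 was added to CPM. The main test did not use replicate numbers as pairing, and the replicate block was an alternative only. Same-numbered stationary libraries with and without metformin deviated together from their group means (r of 0.196, 0.372 and 0.489). Stationary library 1 without and library 2 with metformin, of different number, stood at 0.32, so the numbers do not settle a pairing. Libraries of a group differed by more than sampling noise in each pair.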

Additional observations from a re-analysis of the deposited data

Results flagged for a closer look

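In 20 sets of 4 exponential libraries, 10 genes in each group, 4 values stood apart by Dixon's test, where chance alone marks about 1 in 20. FOX2 stood at 12.8 CPM in library 3 without metformin, against 18.3 to 19.4 CPM in the others. POT1 stood at 1.46 CPM in library 2 without metformin, against 0.596 to 0.724 CPM. ECI1 stood at 12.7 CPM in library 1 with metformin, against 9.21 to 9.62 CPM. ANT1 stood at 34.5 CPM in library 4 with metformin, against 36.5 to 36.7 CPM. Groups of 3 libraries were not tested in this way.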

How the results depend on the processing

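The counts of called genes among the 10 were the same under every alternative run, except that with plain library totals 8 in place of 9 rose in both phase comparisons. The fit of the compared groups alone is the full fit for the difference between phases and was not repeated there. The replicate block changed no call for the 10 genes, and gave 0 called genes in each metformin comparison. That block followed the numbers in the column names, in exponential and stationary libraries alike, and so also joined same-numbered libraries across the phases. In exponential cultures same-numbered libraries had correlations of 0.438, -0.023, 0.838 and 0.236, so the numbers do not settle a pairing there either. Under that block SPS19 stood at -0.01 in exponential cultures and BNR1 at 0.06 between phases. SPS19 with metformin in exponential cultures also stood at -0.02 in limma-voom and -0.01 with RLE size factors, and BNR1 between phases at 0.01 in DESeq2 and 0.01 with RLE size factors. Calls among all features with metformin in stationary cultures numbered 3, against 19 with the block, 47 in DESeq2, 7 in limma-voom, 5 with plain library totals and 0 in the compared groups alone. For exponential cultures they numbered 6, against 8 in DESeq2 and 4 in limma-voom and in the compared groups alone, and for the difference 1, against 8 with the block, 12 in DESeq2 and 2 with plain library totals. Leaving out 1 library gave 1 to 13 calls in stationary cultures, 2 to 6 in exponential cultures and 0 to 16 for the difference, with both maxima without the stationary library with 0 mM metformin numbered 3. None was among the 10 genes, and the cause was not tested.

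With plain library totals the following values changed sign. For metformin in stationary cultures they were POX1 -0.14, FOX2 -0.09, POT1 -0.02, PXA1 -0.09, PXA2 -0.05, SPS19 -0.03, PIP2 -0.13 and DCI1 -0.13. Between phases without metformin they were TES1 -0.16, OAF1 -0.23, FAA3 -0.46, OLE1 -0.26, HFA1 -0.63, SPS18 -0.73 and HEM14 -1.01, and with metformin TES1 -0.11, OAF1 -0.44 and PIP2 -0.04. For the difference between phases they were FOX2 -0.06, PXA1 -0.15, PXA2 -0.11 and SPS19 -0.06. TES1 between phases was the only called value of the 10 genes among these. PIP2, TGL3, TGL4 and REC107 lost their calls between phases without metformin.

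Leaving out a library changed the sign of uncalled values only, and PPT2 lost its call. In exponential cultures with metformin the ranges were ECI1 -0.08 to 0.07, FAA2 -0.05 to 0.19, FOX2 -0.20 to 0.04, PXA1 -0.07 to 0.14, PXA2 -0.11 to 0.14, SPS19 -0.11 to 0.10 and TES1 -0.05 to 0.09. In stationary cultures they were ADR1 -0.07 to 0.04, DCI1 -0.05 to 0.12, ECI1 -0.16 to 0.05, FOX2 -0.01 to 0.26, OAF1 -0.07 to 0.02, POT1 -0.02 to 0.33, POX1 -0.03 to 0.10 and SPS19 -0.08 to 0.38. For the difference between phases they were DCI1 -0.16 to 0.02, ECI1 -0.19 to 0.04, PIP2 -0.09 to 0.01, PXA1 -0.06 to 0.17, PXA2 -0.03 to 0.22 and SPS19 -0.09 to 0.37, and between phases BNR1 -0.11 to 0.09 and HEM14 -0.01 to 0.09. With 3 or 4 libraries a group, the 95% intervals of the metformin values give the range of change compatible with these libraries, gene by gene and before adjustment. They do not give the smallest change that could have been called.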
